A study of Homo sapiens with 4 samples.

Results

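The genes described here encode the subunits of the mitochondrial respiratory chain and of ATP synthase, from both the nuclear and the mitochondrial genome. They were chosen by symbol (NDUFA, NDUFB, NDUFC, NDUFS and NDUFV genes, SDHA to SDHD, UQCR genes, COX4 to COX8 genes, ATP5 genes and the protein-coding MT- genes). The match by symbol used no measured value, but the genes were chosen with earlier results of these data known. The rule matched 109 of the 20323 rows of the expression table. For 10 repeated symbols the row with the highest mean level was kept, which left 99 genes, 86 nuclear and 13 mitochondrially encoded.

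RNA-seq of polyadenylated RNA was made from HT-1080, an established human fibrosarcoma line. The groups were sgPKA (1 library, a guide RNA against protein kinase A), sgALKBH5 (1 library, a guide against the RNA m6A demethylase ALKBH5) and the sgNC control guide (2 libraries, here control 1 and control 2). All groups shared the line and its culture medium, and no other agent is named in the labels. The labels do not say which PKA subunit gene was targeted, whether the edited cells were a clone or a pool, or whether the controls were separate cultures. With 1 library per knockout, differences from the controls have no replicate check, and p-values measure only the spread between the controls, which may be technical.

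The respiratory chain passes electrons along complexes of the inner mitochondrial membrane. Complex I takes them from NADH and complex II from succinate, complex III passes them from ubiquinol to cytochrome c, and complex IV passes them to oxygen. Complexes I, III and IV pump protons, and ATP synthase (complex V) uses the proton gradient to make ATP. The mitochondrial genome encodes hydrophobic core subunits of every complex except complex II, transcribed as long polycistronic RNAs, while the other subunits come from nuclear genes whose promoters are known for sites of the factors NRF1, GABP, YY1 and CREB. CREB is a classical substrate of protein kinase A and binds the cAMP response element (CRE).

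Total expected counts were 14050867 in sgPKA, 25937347 in sgALKBH5, and 18469299 and 18522402 in the controls. PRKACA, a catalytic subunit gene of protein kinase A, stood at 10.6 TPM (a level per transcript length, scaled to the same total in every library) in sgPKA, with a control mean of 65.3 ± 6.76 TPM (SD, n = 2). ALKBH5 stood at 37.5 TPM in sgALKBH5, with a control mean of 73.9 ± 8.91 TPM (SD, n = 2). The mesenchymal marker VIM was at 7839 TPM in sgPKA, 7853 TPM in sgALKBH5, and 6730 and 6840 TPM in the controls. VIM made up most of the summed level, and it was the only 1 of the 6 mesenchymal markers above both controls in sgPKA. SPARC was at 635 TPM in sgPKA and 1742 TPM in sgALKBH5, against 2215 and 909 TPM in the controls, and FN1 at 219.96 TPM in sgPKA and 745 TPM in sgALKBH5, against 1029.5 and 118 TPM. COL1A1 was at least 2-fold below both controls in sgPKA, at 0.184 TPM against 7.69 and 2.29 TPM, and COL6A1 at least 2-fold above both in sgALKBH5, at 293 TPM against 115 and 115 TPM. The 6 mesenchymal markers summed to 8815 TPM in sgPKA, 10708 TPM in sgALKBH5, and 10170 and 8004 TPM in the controls. Of the 5 epithelial markers, EPCAM was at 0 throughout and CDH1 and KRT19 were at or near 0, while KRT18 was expressed, as was KRT8, which was at 209 TPM in sgPKA, at least 2-fold below both controls at 686 and 546 TPM, and the 5 together summed to 478 TPM in sgPKA, 836 TPM in sgALKBH5, and 1392 and 1023 TPM in the controls. Leukocyte and endothelial markers (4 and 3 genes) summed to between 0.336 and 2.05 TPM in every library. Any part of these marker differences in the results given here was not tested. In bulk RNA, a different mix of cells and a different amount of RNA per cell cannot be told apart.

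Promoter stretches are shown for members that hold a perfect CRE, TGACGTCA, because protein kinase A is the kinase upstream of the factor that binds it. RefSeq promoter windows (GRCh38.p14, 250 bases before to 50 after the start site) were found for 69 of the 99 genes. The CRE was in 5 of these (7.25%) against 540 of 27305 windows of all genes (1.98%), with both strands searched. In each stretch the capitals mark the motif, read 5′ to 3′ on the gene's own strand.
ATP5MC1, chr17:48892704-48892763 (+): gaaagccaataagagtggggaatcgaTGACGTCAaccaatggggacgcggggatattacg
ATP5ME, chr4:674401-674460 (-): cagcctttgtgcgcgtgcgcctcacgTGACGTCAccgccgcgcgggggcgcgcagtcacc
NDUFA10, chr2:240025357-240025416 (-): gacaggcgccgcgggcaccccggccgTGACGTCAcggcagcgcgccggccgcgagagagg
NDUFB2, chr7:140696629-140696688 (+): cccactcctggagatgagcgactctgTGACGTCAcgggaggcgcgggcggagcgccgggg

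The end of the motif lay 50 bases before the start site in ATP5MC1, 151 in ATP5ME, 41 in NDUFA10 and 46 in NDUFB2. The remaining CRE match, in SDHB, reaches past the start site and is named only. These promoters belong to different complexes: NDUFA10 and NDUFB2 encode accessory subunits of complex I, SDHB the iron-sulphur subunit of complex II, ATP5MC1 a c-ring subunit and ATP5ME a small membrane subunit of ATP synthase.

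The NRF1 site, a palindrome given in capitals in the stretches shown for it, was in 4 of the 69 windows (5.80%) against 1.36% of all windows, namely ATP5F1C, NDUFA8, NDUFB4 and SDHD. Stretches are shown for 3 of them because this factor is the classical regulator of nuclear respiratory chain genes. Only bases before the start site are printed, so the ATP5F1C stretch is cut short after its site.
ATP5F1C, chr10:7788129-7788176 (+): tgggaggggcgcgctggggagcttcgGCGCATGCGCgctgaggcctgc
NDUFB4, chr3:120596151-120596212 (+): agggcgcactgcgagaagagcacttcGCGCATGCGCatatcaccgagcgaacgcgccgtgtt
SDHD, chr11:112086737-112086798 (+): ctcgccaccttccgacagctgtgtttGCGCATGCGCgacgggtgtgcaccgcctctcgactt

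The ETS-type site CCGGAAGT, the kind GABP binds, was in 10 windows (14.5% against 4.44% of all windows), and a YY1 site of 11 letters in 4 (5.80% against 0.916%). SDHD held both the NRF1 and the ETS-type site, and SDHB both the CRE and the YY1 site. A match is a description of these letters and does not show that a factor binds there.

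The mitochondrial genome packs its genes so tightly that some share bases, which limits what a read can be assigned to. MT-ATP8 and MT-ATP6 share 46 bases (GENCODE, GRCh38), shown with the MT-ATP6 start codon in capitals.
MT-ATP8 and MT-ATP6, chrM:8527-8572 (+): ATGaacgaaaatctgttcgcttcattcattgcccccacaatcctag

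MT-ND4L and MT-ND4 share 7 bases in the same way. The levels of these 4 genes, and above all of the short MT-ATP8 (207 bases) and MT-ND4L (297 bases), therefore depend on how shared reads were divided.

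The mitochondrially encoded genes together held most of the summed TPM of the members in every library. Singly they did not all lead, since nuclear ATP5F1B was above MT-ND4L and MT-ND6 in every library. The mitochondrially encoded genes took 4.45% of counts in sgPKA (95% Wilson interval 4.44 to 4.46%) and 4.24% in sgALKBH5 (4.23 to 4.25%), against 4.90% (4.89 to 4.91%) in control 1 and 4.69% (4.68 to 4.70%) in control 2. These intervals cover counting error only. Both knockouts were thus below both controls in this share, with 4.79 ± 0.155% as the control mean (SD, n = 2). As a share of the TPM total the values were 8.60% in sgPKA, 8.16% in sgALKBH5, and 9.22 and 8.41% in the controls. On this scale sgPKA lay between the controls. By counts normalised by TMM, a scaling of library sizes, 12 of the 13 genes lay below both controls in sgPKA (38.3% of all genes). In sgALKBH5 10 of them did (34.3% of all genes). Positions of single genes against the controls are given in TPM unless TMM is named.

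MT-CO1, the catalytic subunit of complex IV, had the highest mean level of all 99 genes, at 14644 TPM in sgPKA, 13523 TPM in sgALKBH5, and 15753 and 15318 TPM in the controls. In sgALKBH5 alone MT-CO3 was higher. MT-CO1 was below both controls in each knockout, with differences in log2(TPM + 1) from the control mean of -0.09 in sgPKA and -0.20 in sgALKBH5, and the controls were 0.04 apart on that scale. MT-CO2, which carries the copper centre that receives electrons from cytochrome c, was at 14317 TPM in sgPKA, 12969 TPM in sgALKBH5, and 14369.5 and 13722 TPM in the controls. The sgPKA library lay between the controls for MT-CO2 and sgALKBH5 below both. MT-CO3 was at 13241 TPM in sgPKA, 13728 TPM in sgALKBH5, and 15430.0 and 13013 TPM in the controls, with both knockouts inside the control range. By TMM-normalised counts MT-CO2 and MT-CO3 were below both controls in each knockout.

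MT-ATP6, the proton channel subunit of ATP synthase, was at 11775 TPM in sgPKA, 10153 TPM in sgALKBH5, and 11953 and 11169.8 TPM in the controls. In TPM it lay below both controls in sgALKBH5 alone. By TMM-normalised counts it did so in sgPKA too, at 3944 CPM with the controls at 4424 and 4406 CPM. MT-ATP8, its neighbour, was at 1467 TPM in sgPKA, 1753 TPM in sgALKBH5, and 1422 and 1848 TPM in the controls, so both knockouts lay inside a wide control range. MT-CYB, the cytochrome b of complex III, was at 6311 TPM in sgPKA, 5523 TPM in sgALKBH5, and 6541 and 5475 TPM in the controls. In TPM it too did not leave the control range in either knockout, but by TMM-normalised counts it was below both controls in each.

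The 7 complex I genes of the mitochondrial genome encode the membrane arm that pumps protons. MT-ND2, the highest of them, was at 7545 TPM in sgPKA, 6762 TPM in sgALKBH5, and 8067 and 5998 TPM in the controls, and its 2 controls were the farthest apart of all 13 genes. MT-ND4 was at 6754 TPM in sgPKA and 6717 TPM in sgALKBH5, against 7497 and 6968 TPM in the controls. MT-ND5 was at 2334 TPM in sgPKA and 2344 TPM in sgALKBH5, against 2527 and 2374 TPM in the controls. Both MT-ND4 and MT-ND5 were below both controls in each knockout. MT-ND1 was at 4203 TPM in sgPKA, below both controls, and 4589 TPM in sgALKBH5, between the controls at 5108 and 4329.6 TPM. MT-ND3 was inside the control range in both knockouts, at 1484 TPM in sgPKA and 1494 TPM in sgALKBH5 against 1541 and 1387 TPM in the controls. By TMM-normalised counts MT-ND1 and MT-ND3 were below both controls in each knockout, MT-ND3 only just in sgALKBH5.

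MT-ND4L was at 1043 TPM in sgPKA and 1087 TPM in sgALKBH5, against 1061 and 1341 TPM in the controls, below both in sgPKA alone. MT-ND6 is the member encoded on the opposite strand, and its transcript is known to lack a stable poly(A) tail. It was at 842 TPM in sgPKA and 959 TPM in sgALKBH5, against 956 and 1192 TPM in the controls, and had the largest sgPKA difference of the 13 genes, -0.34 in log2(TPM + 1). The controls were 0.32 apart on that scale for MT-ND6. The sources used here do not state whether counting used strand, so reads from the opposite strand of the MT-ND6 region cannot be told apart from its own.

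**Figure D1:**
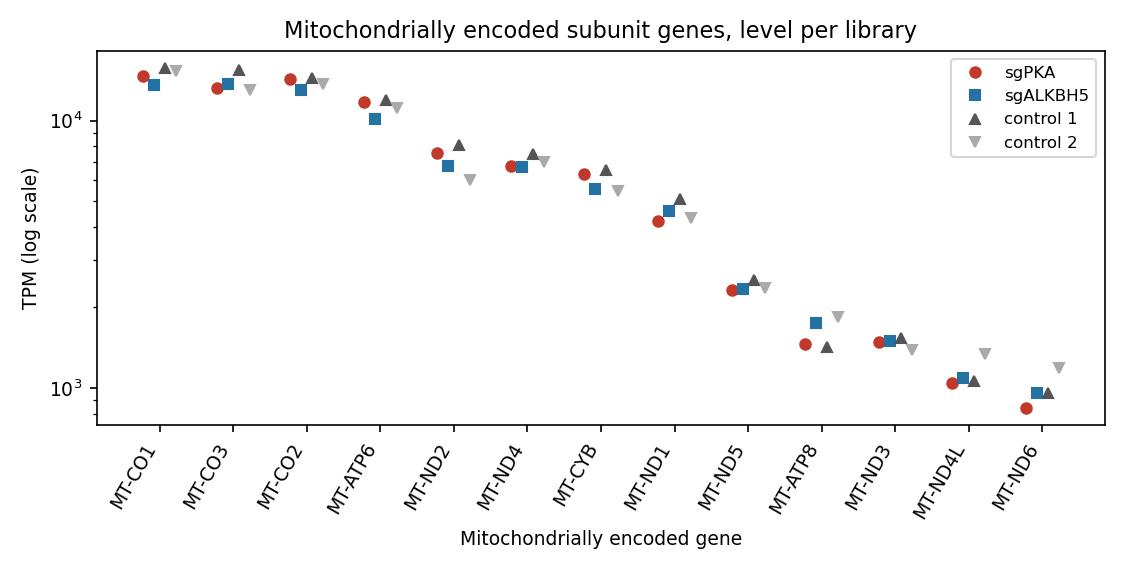
Level of each of the 13 mitochondrially encoded genes in TPM (log scale) in sgPKA, sgALKBH5, control 1 and control 2, ordered by mean level. The libraries keep nearly the same order of genes, from MT-CO1 at 13523 to 15753 TPM down to MT-ND6 at 842 to 1192 TPM.

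The proportions among the 13 genes stayed close across libraries. MT-CO1 made up 17.0% of their summed TPM in sgPKA, 16.6% in sgALKBH5, and 17.1 and 18.2% in the controls. The highest gene of each library, MT-CO3 in sgALKBH5 and MT-CO1 elsewhere, stood 17.4-fold above the lowest in sgPKA and 14.3-fold in sgALKBH5. In the controls it stood 16.5-fold and 12.9-fold above. Summed mitochondrially encoded over summed nuclear TPM was 5.75 in sgPKA, 5.55 in sgALKBH5, and 6.03 and 4.97 in the controls, with both knockouts inside the control range.

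Of the 86 nuclear genes, 78 had a mean level of at least 1 TPM over the 4 libraries and 8 did not. Levels of the 78 differed by up to 92.7-fold between genes. The order of levels was nearly the same in all libraries, with Spearman's rho between pairs of libraries from 0.95 to 0.98 over these 78 genes, a description of levels that share each library. The highest nuclear gene was ATP5F1B, the catalytic beta subunit of ATP synthase, at 1379 TPM in sgPKA, 1348 TPM in sgALKBH5, and 1506 and 1439 TPM in the controls.

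Isoform pairs were strongly one-sided, as levels per length show. The tissue-specific forms COX4I2, COX6A2, COX7A1, COX7B2 and COX8C of complex IV and the ATP synthase gene ATP5MGL were at 0 in all 4 libraries. COX6B2 was at 0 in sgPKA, 0.105 TPM in sgALKBH5, and 0.526 and 0.092 TPM in the controls. UQCRHL, an intronless copy of UQCRH, was at 0 in sgPKA, 0.067 TPM in sgALKBH5, and 0.046 and 0.044 TPM in the controls. The general forms carried the signal. COX4I1 was at 733 TPM in sgPKA, 609.5 TPM in sgALKBH5, and 697 and 772 TPM in the controls, and COX6A1 was at 671, 692, 751 and 771 TPM in the same order.

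**Figure D2:**
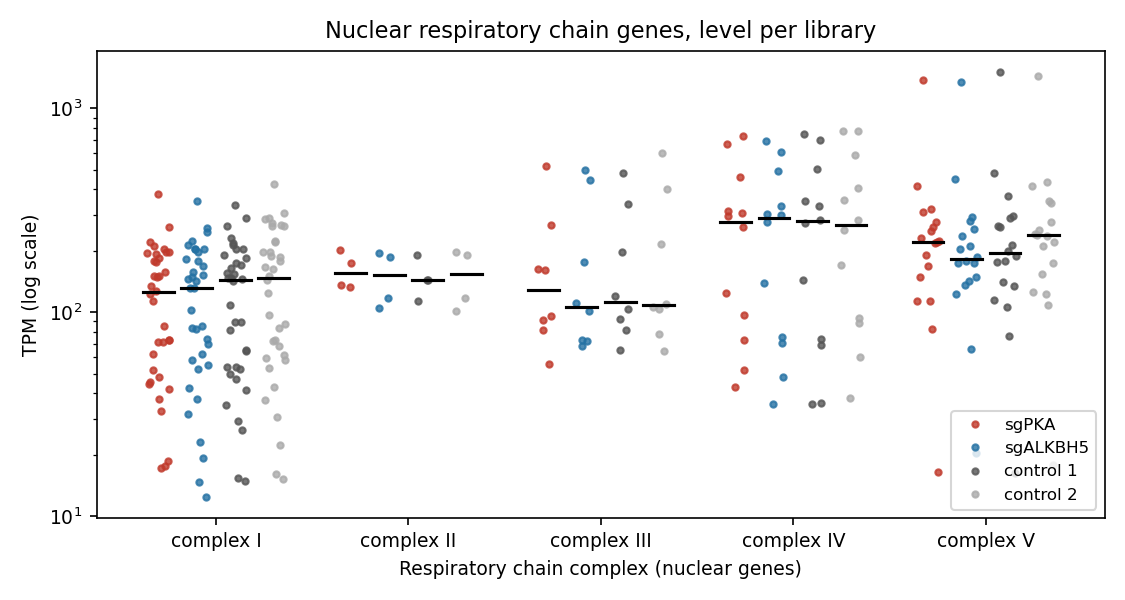
Level in TPM (log scale) of the 78 nuclear genes with a mean of at least 1 TPM, by complex and library, with black bars at the median of each complex. Within each complex the spread between genes exceeds the difference between libraries, and ATP5F1B stands alone at the top of complex V at 1348 to 1506 TPM.

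For 3 genes another row of the same symbol held a sizeable level, so that their values are uncertain. The other row averaged 37.2 TPM for UQCR11 (36.3% of the row used), 12.1 TPM for NDUFA9 (56.4%) and 10.9 TPM for NDUFA7 (21.7%). Adding all rows of a symbol changed no direction among the values named here.

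The sgPKA library was set against the controls to ask how loss of protein kinase A bears on these transcripts. No respiratory chain gene passed the test. The genes instead showed a small offset with a split inside it. In TPM 21 lay above both controls (50.3% of all genes) and 44 below both (26.9%), while 26 lay between them. The genes with the largest values above the controls were ATP5PB, UQCRC2 and ATP5PD, and those with the largest below were NDUFA3, NDUFB8 and NDUFA2.

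In sgPKA, 0 of the 91 genes tested were called by edgeR's quasi-likelihood test at a Benjamini-Hochberg adjusted p of 0.05, where 0% of all 13061 genes were called. The lowest adjusted p by edgeR was 0.527. The edgeR log2 fold changes of NDUFB8 and NDUFA9 were -0.80 and -0.66, and for NDUFA9 another row held 56.4% of the level of the row used. That other row was at 12.7 TPM in sgPKA, between the controls at 12.6 and 14.1 TPM. The Wald test of DESeq2 called 0 of them (1.09% of all genes tested) and limma on log2(TPM + 1) called 0 (0% of all genes). No member lay 2-fold from both controls, where 1.04% of the 11629 genes with a mean of at least 1 TPM did so above and 1.39% below.

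The counts of genes outside both controls read against 50.3% of all genes above and 26.9% below. On the scale of counts normalised by TMM, which moved the median of all genes to 0.00 from 0.15 in log2(TPM + 1), 9 members lay above both controls and 66 below, where 39.7% of all genes lay above and 38.3% below. The median difference of the 78 nuclear genes was -0.09 in log2(TPM + 1) and -0.28 by TMM. Relative to the median of all genes it was -0.24 and -0.28 on these scales, and that of the mitochondrially encoded genes was -0.23 and -0.28. Against control 1 alone the nuclear median was -0.02 and against control 2 alone -0.15, where all genes had medians of 0.11 and 0.19. It was thus below the median of all genes against each control, and farther below against control 2. Values outside the controls by more than the controls differed were found for 12 members above (31.3% of all genes) and 16 below (14.1%).

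Medians by complex were -0.10 for complex I (36 genes), -0.12 for complex III (8), -0.13 for complex IV (12) and -0.10 for complex V (18) in log2(TPM + 1). Complex II (4 genes) stood at 0.06 on this scale but at -0.11 by TMM. Relative to the median of all genes, every complex was below 0 on both scales, complex II least, at -0.08 and -0.12.

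NDUFB9, an accessory subunit and the highest nuclear gene of complex I, was at 380.0 TPM in sgPKA and 352 TPM in sgALKBH5, inside the control range of 336 and 424 TPM. Among accessory subunits below the controls, NDUFA3 (ENSG00000170906, chr19:54102855-54107568 in GRCh38.p14) was at 37.6 TPM in sgPKA, with the controls at 53.8 and 73.3 TPM, the largest difference of any member at -0.72 in log2(TPM + 1). Its controls were themselves 0.44 apart. NDUFB8 (ENSG00000166136, chr10:100523729-100529923), an accessory subunit of the membrane arm, was at 196 TPM in sgPKA, with the controls at 290.0 and 308 TPM. Here the controls were close, and the difference was -0.60 with an edgeR log2 fold change of -0.80 and an adjusted p of 0.527. NDUFA2 was at 62.1 TPM in sgPKA, with the controls at 81.3 and 96.4 TPM, a difference of -0.51. Less the trend on GC content and length these 3 differences were -0.43, -0.36 and -0.29, in the order given.

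Not all of complex I lay on that side. NDUFS1, the largest core subunit, which holds iron-sulphur clusters, was at 73.3 TPM in sgPKA, with the controls at 64.4 and 61.4 TPM. It lay above both controls, with a difference of 0.22. The trend on GC content and length had a larger value of 0.36 for NDUFS1, so less the trend its difference was below 0. NDUFA5, an accessory subunit with a low level, was at 18.7 TPM in sgPKA, with the controls at 14.9 and 15.1 TPM, a difference of 0.30 that turned to -0.03 by TMM and to -0.16 once a trend on GC content and length was removed.

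The 2 large core proteins of complex III, which sit side by side on its matrix face, lay on opposite sides of the controls in sgPKA. UQCRC1 (ENSG00000010256, chr3:48599002-48609646) was at 268 TPM in sgPKA, with the controls at 339.9 and 401 TPM, a difference of -0.46. UQCRC2 (ENSG00000140740, chr16:21953361-21983660) was at 162 TPM against 120.0 and 106 TPM, a difference of 0.52. Both kept these signs by TMM, and less the trend on GC content and length the differences were -0.22 for UQCRC1 and 0.33 for UQCRC2. Their transcripts differ in base composition, with GC contents of 59.5% for UQCRC1 and 45.5% for UQCRC2. UQCRFS1, the Rieske iron-sulphur protein, was at 55.8 TPM in sgPKA, with the controls at 81.4 and 64.6 TPM, and UQCRH, the hinge protein and highest member of the complex, at 524 TPM between the controls at 479 and 602 TPM.

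Complex II showed the membrane anchor SDHD above both controls, at 136 TPM in sgPKA, with the controls at 114 and 101 TPM, a difference of 0.34 that was 0.15 by TMM, 0.21 with TPM rescaled by the TMM factors and 0.11 less the trend. SDHB was at 202 TPM in sgPKA, with the controls at 189.6 and 198 TPM, but by TMM-normalised counts it was below both, at 101 CPM with the controls at 105 and 116 CPM. The catalytic flavoprotein SDHA, at 174 TPM, lay between its controls at 144 and 189.8 TPM, and the anchor SDHC, at 132 TPM, between 143 and 117 TPM. By TMM-normalised counts SDHC was also below both, at 77.5 CPM with the controls at 89.4 and 80.0 CPM.

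In complex IV, 7 of 12 expressed nuclear genes were below both controls in sgPKA (26.9% of all genes) and 3 above (50.3%). By TMM 8 were below (38.3% of all genes) and 1 above (39.7%). COX7A2, the general isoform of its family, was at 295 TPM against 352 and 354 TPM. COX5A, the subunit around which assembly begins together with COX4, was at 261 TPM against 284 and 283 TPM. COX8A was at 459 TPM against 506 and 589 TPM, and COX6B1 at 307 TPM against 332 and 408 TPM. These 4 lay below both controls. COX7C was above both, at 312 TPM against 275 and 253 TPM. The differences were -0.25 for COX8A, -0.26 for COX6B1 and 0.24 for COX7C. The trend on GC content and length had values of -0.43, -0.34 and 0.28 for them, in the same order. Less the trend, these 3 differences thus changed sign. COX7B was at 43.1 TPM in sgPKA and 35.5 TPM in sgALKBH5, against 35.3 and 38.0 TPM in the controls. COX7A2L, which takes part in supercomplexes, was at 73.0 TPM against 73.6 and 88.2 TPM.

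ATP5F1A, the alpha subunit of ATP synthase, was at 416 TPM in sgPKA and 451 TPM in sgALKBH5, inside the control range of 479.9 and 414 TPM. The 4 peripheral stalk genes, whose products hold the catalytic head still against the rotor, were all above both controls in sgPKA in TPM (50.3% of all genes were), and 2 of the 4 (ATP5PB and ATP5PD) were by TMM (39.7% of all genes). ATP5PB (ENSG00000116459, chr1:111449464-111462773) was at 220.3 TPM in sgPKA, with the controls at 134 and 175 TPM, a difference of 0.52. That difference was 0.27 by TMM and 0.24 less the trend on GC content and length. ATP5PD was at 191 TPM against 141 and 154 TPM, ATP5PF at 250.4 TPM against 200.3 and 237 TPM, and ATP5PO at 223 TPM against 189 and 220.1 TPM. The ATP5PD difference of 0.37 was 0.18 by TMM and 0.20 less the trend. ATP5PO was barely outside control 2, with an edgeR log2 fold change of -0.07.

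The 5 small membrane subunit genes and the c-ring genes had no member above both controls in sgPKA, in TPM (50.3% of all genes) or by TMM (39.7%). ATP5MC3, a c-ring gene, was at 320.0 TPM in sgPKA, with the controls at 369.5 and 435 TPM, and ATP5MC2 at 276 TPM against 295 and 342 TPM. ATP5F1D, the delta subunit of the central stalk, was at 148 TPM in sgPKA, with the controls at 175 and 242 TPM, the lowest difference of the complex at -0.47 and -0.18 less the trend on GC content and length. The gamma subunit ATP5F1C was above both controls, at 311 TPM against 262 and 252 TPM.

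**Figure D3:**
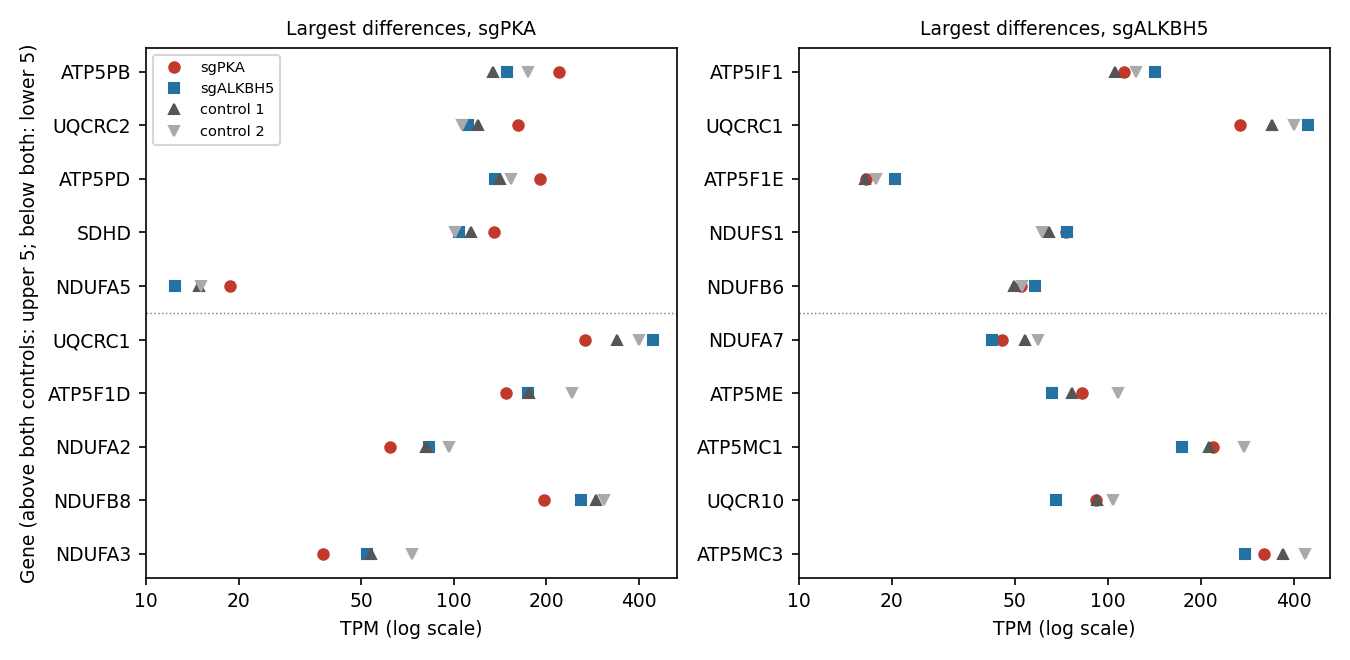
TPM (log scale) in each library for the 5 genes with the largest differences above and the 5 below both controls, for sgPKA on the left and sgALKBH5 on the right. UQCRC1 appears in both, at 268 TPM in sgPKA and 444 TPM in sgALKBH5 around controls at 339.9 and 401 TPM.

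The sgPKA differences followed base composition, in these genes as in all genes. Spearman's rho between the sgPKA difference and the GC content of the longest transcript was -0.57 over the 78 nuclear genes and -0.49 over 11604 genes, a description of genes that share the same 3 libraries. Of the 39 nuclear genes at or above their median GC of 47.7%, 5 lay above both controls and 25 below, with a median of -0.24. Of the 39 below it, 16 lay above and 13 below, with a median of 0.02. Of all genes at or above that GC value, 30.8% lay above both controls and 41.1% below, and of those under it 72.1% above and 11.2% below. All genes on these sides had medians of -0.06 and 0.37, so the respiratory chain genes were lower than other genes on each side. With a smooth trend on GC content and length removed, the nuclear median was -0.09 and that of all genes 0.05. The part of GC content in single differences was not tested.

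**Figure D4:**
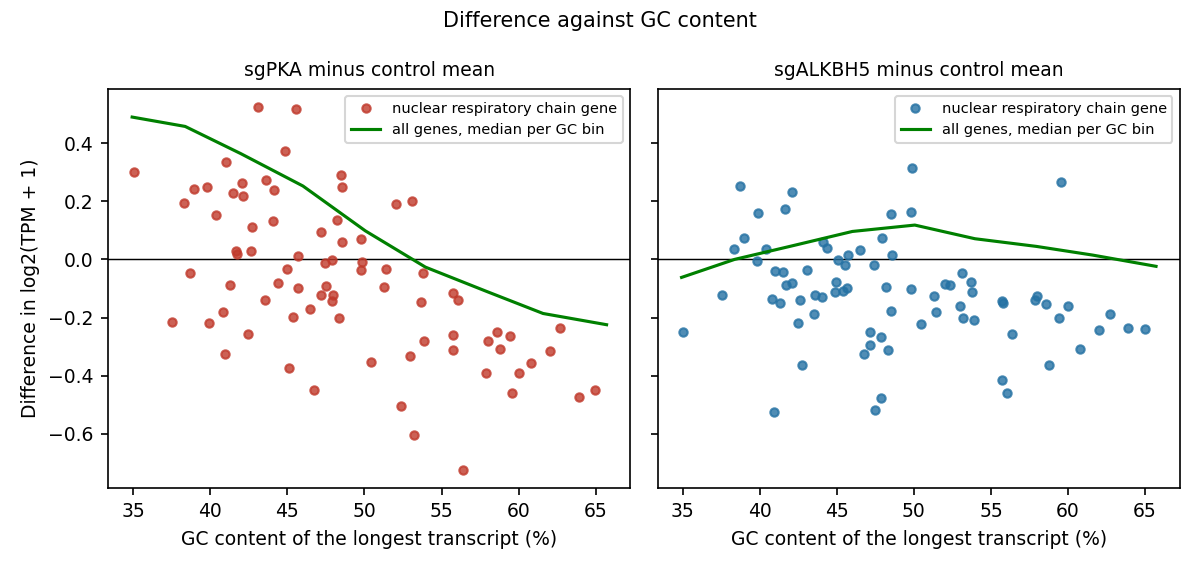
Difference in log2(TPM + 1) from the control mean against GC content of the longest transcript (%), for each nuclear gene (points) and for all genes (line, median per GC bin), for sgPKA on the left and sgALKBH5 on the right. In sgPKA the points run down with GC content, with rho of -0.57 against -0.49 for all genes. In sgALKBH5 rho is -0.36 for the points and 0.03 for all genes.

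The sgALKBH5 library was set against the same 2 controls to ask how loss of the demethylase bears on these transcripts. No respiratory chain gene passed the test here either. More genes lay below both controls than above, 47 (27.5% of all genes) against 7 (39.1% of all genes), with 37 between. The genes farthest below were the c-ring genes ATP5MC3 and ATP5MC1, together with UQCR10 and ATP5ME. ATP5IF1 and UQCRC1 were the farthest above. Because the controls are shared, genes below both controls in both knockouts are not independent observations.

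In sgALKBH5, edgeR's quasi-likelihood test called 0 of the 91 genes, where 0% of all 13061 genes were called, with a lowest adjusted p of 0.998. DESeq2 called 0 (0.282% of all genes tested) and limma 0 (0% of all genes). No member lay 2-fold from both controls, where 1.03% of all genes did so above and 0.482% below.

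For all genes, 39.1% lay above both controls in sgALKBH5 and 27.5% below. By TMM the members split into 4 above and 60 below, where 33.0% and 34.3% of all genes did. The nuclear median was -0.12 in log2(TPM + 1) and -0.18 by TMM, beside 0.05 and -0.01 for all genes. Set against control 1 alone it was -0.05, and against control 2 alone -0.21, where all genes had medians of 0.02 and 0.08. The mitochondrially encoded median was -0.11. Members outside the controls by more than the controls differed numbered 4 above (15.8% of all genes) and 24 below (13.1%).

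Medians by complex in sgALKBH5 were -0.15 for complex I, -0.01 for complex II, -0.05 for complex III, -0.14 for complex IV and -0.12 for complex V. In complex I, 22 of 36 genes were below both controls (27.5% of all genes) and 2 above (39.1%). NDUFA7 was at 42.3 TPM in sgALKBH5 against 54.1 and 59.4 TPM in the controls, NDUFB10 at 213 TPM against 264 and 286 TPM, and NDUFS4 at 23.2 TPM against 29.4 and 30.8 TPM. NDUFS4 is an accessory subunit known to be needed for a stable electron input module. NDUFS1, at 74.1 TPM against 64.4 and 61.4 TPM, was above both controls here as in sgPKA, and NDUFB6 was at 58.0 TPM against 49.6 and 52.9 TPM. The NDUFS1 difference of 0.23 was 0.15 less the trend on GC content and length, and the NDUFB6 difference of 0.17 was 0.03 by TMM.

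In TPM no complex II gene left the control range in sgALKBH5: SDHA was at 186 TPM, SDHB at 196 TPM, SDHC at 118 TPM and SDHD at 104 TPM, beside the control values given above. By TMM-normalised counts SDHC was below both, at 75.2 CPM with the controls at 89.4 and 80.0 CPM. SDHD was too, at 74.8 CPM with the controls at 82.0 and 77.7 CPM (34.3% of all genes were below both by TMM). In complex III, UQCRC1 was at 444 TPM in sgALKBH5 against 339.9 and 401 TPM, a difference of 0.27, opposite in sign to that in sgPKA. UQCRC2, at 111 TPM, was inside the control range in TPM. By TMM-normalised counts UQCRC2 was below both controls, at 90.6 CPM with the controls at 98.0 and 97.3 CPM. UQCR10 (ENSG00000184076, chr22:29767369-29770413), a small subunit of complex III, was at 68.1 TPM in sgALKBH5 against 92.2 and 104 TPM, a difference of -0.52. In complex IV, COX4I1 was at 609.5 TPM against 697 and 772 TPM and COX7A2 at 303 TPM against 352 and 354 TPM.

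The 3 c-ring genes encode the same mature protein, the ring that turns as protons pass, and differ in their import sequences. All 3 were below both controls in sgALKBH5, in TPM (27.5% of all genes) and by TMM (34.3%), with a median of -0.48 and -0.54. ATP5MC3 (ENSG00000154518, chr2:175176258-175181710) was at 278 TPM in sgALKBH5 against 369.5 and 435 TPM in the controls, ATP5MC1 (ENSG00000159199, chr17:48892787-48895871) at 174 TPM against 213 and 276 TPM, and ATP5MC2 at 255 TPM against 295 and 342 TPM. The controls were 0.21 to 0.37 apart for these genes, with control 2 higher in each. ATP5MC3 alone lay below by more than that gap.

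ATP5ME, the small e subunit whose promoter also holds the CRE, was at 66.1 TPM in sgALKBH5 against 76.8 and 108 TPM. ATP5IF1, the inhibitor that blocks ATP hydrolysis by the enzyme when the proton gradient fails, was at 142 TPM in sgALKBH5 against 106 and 123 TPM, the largest value above the controls at 0.31, or 0.20 less the trend on GC content and length. In sgPKA it was at 113 TPM, between the controls. ATP5F1E, the epsilon subunit, was at 20.5 TPM in sgALKBH5 against 16.4 and 17.8 TPM.

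**Figure D5:**
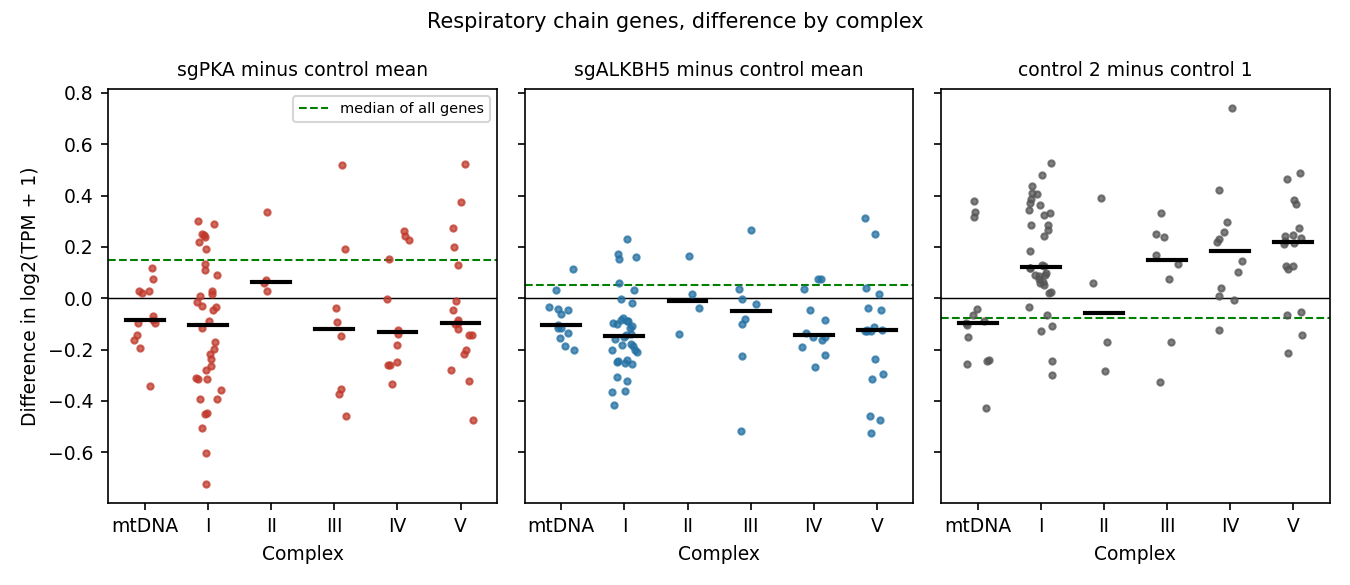
Difference in log2(TPM + 1) for each member by complex, with black bars at the median of each and a dashed line at the median of all genes, for sgPKA, sgALKBH5 and, on the same axis, control 2 against control 1. The medians of all 5 nuclear complexes lie below the dashed line in both knockouts and above it for control 2 against control 1.

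Members grouped by promoter motif held values on both sides of 0 in sgPKA. The 5 CRE genes had sgPKA differences from -0.14 to 0.06, with a median of -0.03, and 1 of them (SDHB) was above both controls in TPM and 0 below, where 50.3% of all genes were above and 26.9% below. By TMM-normalised counts SDHB was below both controls. In sgALKBH5 their differences ran from -0.48 to 0.02. The 4 NRF1 genes had sgPKA differences from -0.03 to 0.34 and sgALKBH5 differences from -0.18 to -0.04, the 10 ETS-type genes from -0.35 to 0.37 and from -0.30 to 0.23, and the 4 YY1 genes from -0.46 to 0.11 and from -0.36 to 0.27.

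The controls themselves differed in these genes. Control 2 was above control 1 for 62 of 78 nuclear genes (41.3% of all genes) with a median of 0.14 in log2(TPM + 1), where all genes had -0.08, and below it for 10 of 13 mitochondrially encoded genes (58.6% of all genes) with a median of -0.10. On this scale the nuclear gap between the controls was larger in size than the nuclear medians of -0.09 in sgPKA and -0.12 in sgALKBH5. By TMM the gap was 0.23, smaller in size than the sgPKA median of -0.28 and larger than the sgALKBH5 median of -0.18. Relative to the median of all genes in TPM it was 0.22, beside -0.24 in sgPKA and -0.17 in sgALKBH5. No member was 2-fold apart between the controls, where 745 genes (6.41%) were. NDUFA4, counted here with complex IV, where its product sits, had the widest gap, with 51.9 TPM in sgPKA and 47.8 TPM in sgALKBH5 between 60.6 TPM in control 2 and 35.8 TPM in control 1.

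Among genes that make and serve the chain, edgeR called 0 in every list. Their counts outside both controls read against 50.3% of all genes above and 26.9% below in sgPKA, where the median of all genes was 0.15, and 39.1% above and 27.5% below in sgALKBH5, where it was 0.05. Of 48 assembly factor genes, 24 were above both controls and 13 below in sgPKA (median 0.07), and 13 above and 20 below in sgALKBH5 (median -0.06), which in sgPKA is near the shares of all genes. NDUFAF8, a complex I assembly factor, was at 218 TPM in sgPKA, 183 TPM in sgALKBH5, and 195 and 235 TPM in the controls, and COA4, of complex IV assembly, at 149, 168, 183 and 174 TPM in that order. TIMMDC1, a membrane factor in complex I assembly, was at 193 TPM in sgPKA, above both controls at 152 and 148 TPM, and at 125 TPM in sgALKBH5, below both.

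Of 20 genes for replication, transcription and RNA handling of mitochondrial DNA, 15 were above both controls and 2 below in sgPKA, with a median of 0.40 (50.3% and 26.9% of all genes, median 0.15). In sgALKBH5, 2 were above and 6 below, with a median of -0.07. The median GC content of this list was 41.6%, on the side where all genes had higher sgPKA values. SSBP1, which coats single-stranded mitochondrial DNA, was at 238 TPM in sgPKA, 246 TPM in sgALKBH5, and 251 and 235 TPM in the controls, and SLIRP, which stabilises mitochondrial messenger RNA, at 95.5, 121, 119.7 and 122 TPM in that order. TFAM, the packaging and transcription factor of mitochondrial DNA, was at 37.2 TPM in sgPKA, 19.0 TPM in sgALKBH5, and 24.0 and 30.1 TPM in the controls. The mitochondrially encoded transcripts were not above both controls for any of the 13 genes in either knockout.

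Of 8 biogenesis regulators, 4 were above and 1 below in sgPKA (median 0.05), and 2 above and 3 below in sgALKBH5 (median -0.08), with the sgPKA share above both controls near that of all genes. PPRC1 was at 66.9 TPM in sgPKA, 67.8 TPM in sgALKBH5, and 76.0 and 54.2 TPM in the controls. YY1 was at 52.01 TPM in sgPKA and 70.2 TPM in sgALKBH5, against 49.95 and 43.6 TPM in the controls, above both in each. NRF1 was at 17.4 TPM in sgPKA and 17.5 TPM in sgALKBH5, against 16.9 and 16.8 TPM in the controls.

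Of 13 tricarboxylic acid cycle genes, 5 were above and 5 below in sgPKA (median -0.02), and 1 above and 6 below in sgALKBH5 (median -0.01), where 39.1% of all genes were above and 27.5% below. MDH2 was at 402 TPM in sgPKA and 364 TPM in sgALKBH5, against 399 and 462 TPM in the controls, and CS, citrate synthase, at 268 and 332 TPM against 328 and 341 TPM. Of 4 subunits and isoforms whose symbols the rule does not match, HIGD2A was at 215 TPM in sgPKA and 228 TPM in sgALKBH5, against 213 and 234 TPM in the controls. NDUFAB1, the acyl carrier protein that is also part of complex I, was at 214 TPM in sgPKA, between the controls at 211 and 225 TPM, and at 158 TPM in sgALKBH5, below both.

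Of 18 electron carrier genes and other inputs to ubiquinone, 7 were above and 7 below in sgPKA (median 0.09), and 4 above and 12 below in sgALKBH5 (median -0.16), where 39.1% of all genes were above and 27.5% below. ETFA was at 140.2 TPM in sgPKA and 125 TPM in sgALKBH5, against 115 and 110.4 TPM in the controls, and CYCS, cytochrome c, at 108 and 98.7 TPM against 108 and 113 TPM. SQOR, which feeds electrons from sulphide to ubiquinone, was the single gene of these 6 lists at least 2-fold outside both controls, at 77.0 TPM in sgALKBH5 against 28.2 and 6.26 TPM in the controls. It was at 5.63 TPM in sgPKA, and its controls were 2.01 apart in log2(TPM + 1).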

How the data were processed

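RNA-seq of 4 HT-1080 libraries was deposited as 1 table. The authors deposited expected counts per gene as raw estimates, per the file headers, with 10.6 to 12.7% of values in each library not whole. The authors also deposited TPM per gene. Tools named in the submitters' processing notes are RSEM, StringTie 1.3.1, HISAT2 2.1.0 and fastp 0.18.0, with GRCh38.p14 as the build. The role of each tool, the annotation release and strand use are not given in the sources used here.

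Genes and lists were chosen with earlier results of these data known. Rounded expected counts were tested with edgeR 4.0.16 in R 4.3.3 (quasi-likelihood test, TMM, filterByExpr, Benjamini-Hochberg adjustment over 13061 genes, 0.05). All 4 libraries entered 1 fit, with 1 residual degree of freedom from the 2 controls, so that the spread of each knockout was taken from the controls. The biological coefficient of variation was 0.347. Differences are in log2(TPM + 1) from the mean of the controls, for genes with a mean of at least 1 TPM. A fold on this scale understates the change of low genes. Medians of groups are described without a test. A floor of 3 counts was 0.214 CPM in sgPKA, 0.116 CPM in sgALKBH5, and 0.162 CPM in both controls. Alternatives were DESeq2 1.42.0, limma 3.58.1, other scalings, filters and pseudocounts, each control left out, and a trend on GC content and length fitted with mgcv 1.9.3. The sum over all rows of a symbol was added after seeing the data. Positions and promoters are from RefSeq (GRCh38.p14), transcripts from GENCODE.

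Genes named are the mitochondrially encoded members, isoform families, SDH genes and ATP5IF1, the 2 highest members of each complex and pathway list, the 5 largest differences each way outside both controls for each knockout, any listed gene 2-fold from both controls, and the targeted genes. Others, such as the remaining subunits of ATP synthase and complexes I, III and IV and TFAM, YY1 or TIMMDC1 where outside these, were named after their values were seen, to show each part of an enzyme. Some items are not reported here.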

Additional observations from a re-analysis of the deposited data

How the results depend on the processing

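The counts of genes called and of genes at least 2-fold from both controls stayed at 0 under every alternative run. In sgPKA the nuclear median, -0.09 as reported, was -0.28 with TMM-normalised counts and -0.21 with TPM rescaled by the TMM factors, and the mitochondrially encoded median, -0.09 as reported, was -0.28 and -0.21. The complex II median in sgPKA reversed to -0.11 with TMM-normalised counts and -0.056 with rescaled TPM. NDUFA5 in sgPKA reversed to -0.029 with TMM-normalised counts and -0.16 less the trend on GC content and length. Other named genes also changed sign in sgPKA less that trend, among them NDUFS1, COX6B1, COX7B, COX7C, COX8A and ATP5PO. The TMM scalings set the median of all genes near 0. Leaving out 1 control gave nuclear medians from -0.15 to -0.02 in sgPKA and from -0.21 to -0.05 in sgALKBH5, and mitochondrially encoded medians from -0.10 to -0.02 and from -0.15 to -0.05. The counts of genes called could not be fitted by edgeR without 1 control, since no residual degree of freedom is left. No paired analysis was possible because each knockout has 1 library without a replicate number, so no numbers are shared with the controls. Of the other values of single genes and complexes that were compared under alternatives, 243 moved by less than the spread between the controls and 29 by more. That comparison did not cover every gene named. Depth limits the near-zero isoforms, for which a level under 3 counts per library cannot be seen.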
